A study of Mus musculus with 18 samples.

Results

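Long intergenic noncoding RNA (lincRNA) genes are transcribed from their own promoters but encode no protein, and the promoters described here are those that lie away from any protein-coding start. A lincRNA gene of the GENCODE M21 annotation was taken when its transcription start site (TSS) lay more than 5 kb from the TSS of every protein-coding transcript, which held for 5196 of 5854 lincRNA genes among 55413 genes in all. The region scored for each gene reached 2 kb to both sides of the TSS. The choice used positions alone and no ChIP-seq value. The peaks came from primary mouse splenic B cells, WT or lacking Mir155 (KO), purified by removal of cells carrying CD43, Ter119 or CD4. Both genotypes were cultured for 2 days at 1% O2 with anti-CD40 (1 µg/ml), anti-IgM (5 µg/ml) and IL-4 (4 ng/ml), a mixture that mimics positive selection in the germinal center, and were fixed with EGS and 1% formaldehyde. Chromatin was immunoprecipitated with antibodies to KDM2A or to H3K36me2, with 3 libraries per genotype and antibody, replicate 1 male and replicates 2 and 3 female by the labels. Per the study's methods, Mir155-deficient mice were kept on a C57BL/6 J background and an age range is given for the mice of the whole study, while the labels give no age for these libraries. How Mir155 was removed is not given in the sources used here. Input libraries (6 of the 18 samples) were not analysed here. The labels do not say whether libraries came from separate mice, so p-values measure the spread between these libraries. Peak lists hold no RNA, so neither the cell type nor the transcription of a lincRNA gene could be checked.

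KDM2A is a histone demethylase that removes methyl groups from lysine 36 of histone H3. Its zinc finger of the CXXC type binds CpG dinucleotides without methylation, which brings it to CpG islands, stretches of DNA rich in CpG that most often sit at promoters of coding genes. H3K36me2, the dimethylated form of that lysine, is a broad mark of gene bodies and intergenic chromatin and a substrate of KDM2A. The lincRNA promoters away from coding genes offer both kinds of ground, since few of them have an island and many lie in intergenic chromatin.

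The KDM2A lists held 23372 to 29105 peaks in WT and 15387 to 21705 in KO. The H3K36me2 lists held 85387 to 94136 peaks in WT and 37447 and 45180 in the female KO libraries. KO replicate 1, the male library, stood apart with 106720 H3K36me2 peaks. Read depth is unknown, and shorter lists leave fewer regions with a peak. The main genotype comparisons of shares and cover were therefore repeated on lists cut to the length of the shortest. These kept the strongest 15387 peaks for KDM2A and 37447 for H3K36me2. Counts of members with a peak in 3 of 3 libraries of a genotype and 0 of 3 of the other were repeated in the same way.

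These promoters were poor in CpG. An island overlapped 204 of the 5196 regions (3.93%), against 55.3% of 658 lincRNA regions within 5 kb of a coding TSS and 55.4% of 21938 protein-coding regions. The TSS itself lay inside the island in 107 members. The median region held 38 CpG dinucleotides, compared with 86 for coding genes, and 24.9% of its bases were masked as repeats, compared with 19.1%. The median distance to the nearest coding TSS was 84444 bp, from 5002 to 2333732 bp. The body of a coding gene contained the TSS of 196 members, 262 had the TSS of another gene in their region, and 381 shared part of their region with another member. On chromosome Y, 548 members held no peak in any of the 12 lists, of which 8 come from female libraries, whose mice carry no chromosome Y. These members remain in the shares of all members given here.

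The promoters printed here are those of the members with the strongest KDM2A peaks, of the first member bound in WT only and of the member with the widest H3K36me2 cover, and they differ in CpG content. Each run below spans 300 bases on the gene's strand, 250 before the TSS and 49 after it, read from GRCm38, with every CpG in capitals. The first 3 are the members with the strongest KDM2A peaks. Gm26640 (chr6:72952986-72953285, plus strand) holds 2 CpG, Gm12974 (chr4:133816170-133816469, plus strand) holds 8, and Gm44698 (chr7:19332879-19333178, plus strand) holds 40. C030034I22Rik (chr17:69417152-69417451, plus strand) leads the members bound in WT only and holds 25.
Gm26640: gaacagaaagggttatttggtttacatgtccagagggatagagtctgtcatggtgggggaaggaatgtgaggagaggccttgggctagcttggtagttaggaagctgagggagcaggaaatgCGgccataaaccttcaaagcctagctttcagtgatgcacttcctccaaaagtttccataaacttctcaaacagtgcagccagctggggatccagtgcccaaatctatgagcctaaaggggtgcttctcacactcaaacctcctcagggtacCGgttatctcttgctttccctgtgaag
Gm12974: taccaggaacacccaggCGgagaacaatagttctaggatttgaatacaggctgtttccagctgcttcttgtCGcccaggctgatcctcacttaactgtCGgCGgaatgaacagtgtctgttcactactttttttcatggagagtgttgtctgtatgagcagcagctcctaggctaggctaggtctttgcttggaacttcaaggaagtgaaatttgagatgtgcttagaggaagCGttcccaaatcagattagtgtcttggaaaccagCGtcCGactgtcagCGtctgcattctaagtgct
Gm44698: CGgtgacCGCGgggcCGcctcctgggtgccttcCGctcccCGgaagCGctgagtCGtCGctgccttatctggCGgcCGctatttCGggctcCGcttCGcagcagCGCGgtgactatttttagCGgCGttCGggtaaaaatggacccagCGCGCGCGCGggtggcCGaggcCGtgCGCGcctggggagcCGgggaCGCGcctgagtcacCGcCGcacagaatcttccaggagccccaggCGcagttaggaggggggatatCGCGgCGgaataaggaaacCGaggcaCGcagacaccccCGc
C030034I22Rik: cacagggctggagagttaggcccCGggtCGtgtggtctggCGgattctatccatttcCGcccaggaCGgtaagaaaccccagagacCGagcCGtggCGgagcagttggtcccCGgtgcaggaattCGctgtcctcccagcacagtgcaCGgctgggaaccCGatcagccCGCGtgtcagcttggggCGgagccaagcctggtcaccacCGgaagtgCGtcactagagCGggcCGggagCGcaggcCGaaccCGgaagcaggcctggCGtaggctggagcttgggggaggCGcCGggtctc

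The next promoter, Gm3716 (chr5:64610651-64610950, minus strand, 7 CpG), had the widest H3K36me2 cover and no island. Mir155hg is the host gene of the microRNA that the KO mice lack. The mature miR-155-5p, given by RefSeq on GRCm38.p6 at chr16:84714143-84714165, starts 10976 bp from the Mir155hg TSS and is shown with its seed, bases 2 to 8, in capitals.
Gm3716: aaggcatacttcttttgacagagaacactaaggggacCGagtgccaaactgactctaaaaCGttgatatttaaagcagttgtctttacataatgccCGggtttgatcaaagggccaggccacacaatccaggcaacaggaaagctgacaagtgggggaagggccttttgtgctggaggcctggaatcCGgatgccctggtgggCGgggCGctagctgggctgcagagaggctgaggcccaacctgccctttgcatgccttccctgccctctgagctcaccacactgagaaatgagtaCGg
miR-155-5p: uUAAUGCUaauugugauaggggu

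Over all members the 300 bases held a median of 3 CpG, and 89.0% of members held the letters CG at least once, as did 90.6% of all 55413 gene promoters. Promoters with 10 or more CpG made up 8.30% of members and 53.4% of coding genes. Among the 70 members with a KDM2A peak in all 6 libraries the median was 13.5 CpG and 64.3% held 10 or more. Among the 4513 members with no KDM2A peak in any library the median was 3 and 6.25% held 10 or more. Members with H3K36me2 in all 6 libraries had a median of 4 and 9.03% with 10 or more. KDM2A-bound members were thus richer in CpG than the rest, as a description, while members with the histone mark were close to the whole set.

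The first question was how often KDM2A occupied these promoters. A KDM2A peak reached 6.70%, 5.20% and 5.50% of members in the WT libraries and 3.43%, 3.12% and 4.91% in the KO libraries. Protein-coding regions had a peak in 44.6%, 43.3% and 43.4% in WT and in 36.5%, 35.5% and 41.8% in KO. The share at lincRNA promoters was below that at coding promoters in 6 of 6 libraries, by 36.1 percentage points on average (range of the difference −38.1 to −32.4). The two-sided exact sign-flip permutation test over the 6 libraries gave p = 0.031, the smallest it can give, and an adjusted p of 0.109 over the 14 comparisons of this family, which does not pass the threshold of 0.05.

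**Figure D1:**
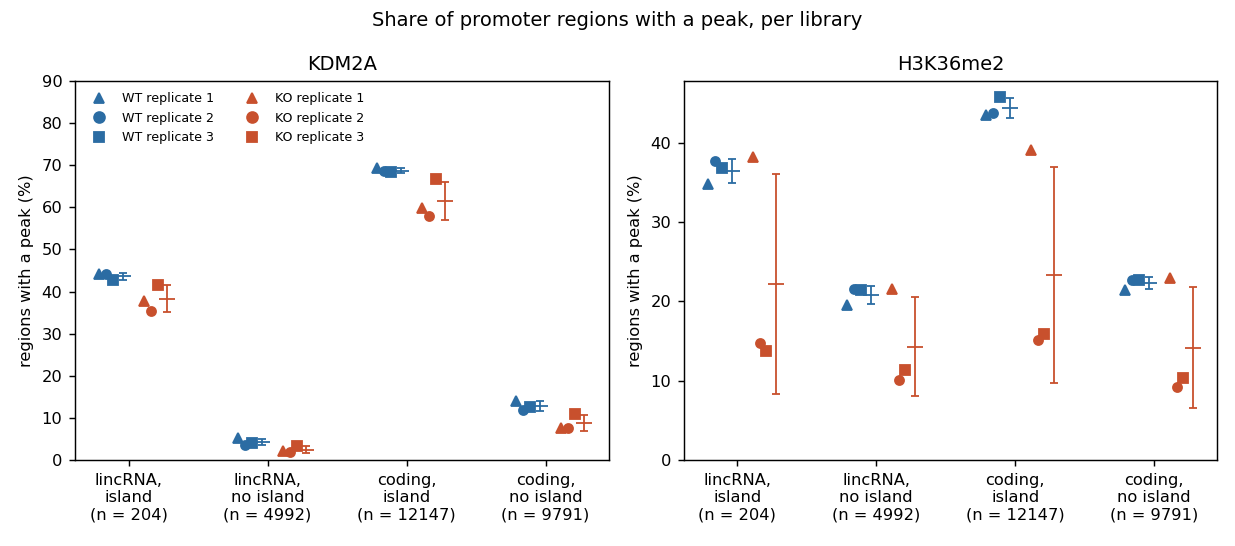
Share of regions with a peak (%, vertical axis) for lincRNA regions over 5 kb from coding genes and for coding regions, with and without a CpG island, by genotype. Points are libraries and bars the mean with SD (n = 3); KDM2A at lincRNA regions with an island averaged 43.6% in WT and 38.2% in KO, and at those without an island 4.25% and 2.41%.

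The difference from coding promoters was found within both island classes. At the 204 members with an island, KDM2A was present in 44.1%, 44.1% and 42.6% of regions in WT and in 37.7%, 35.3% and 41.7% in KO. Coding regions with an island averaged 65.1% over the 6 libraries against 40.9% for the members, a difference of −24.2 points, lower in 6 of 6 libraries (exact sign-flip permutation test, p = 0.031, adjusted p = 0.109). Without an island the members averaged 3.33% and coding regions 10.7%, again lower in 6 of 6 libraries (−7.42 points, exact sign-flip permutation test, p = 0.031, adjusted p = 0.109). That difference was −4.03 points with the stricter peaks (−log10 q of at least 2) and −14.2 where CpG content around the TSS replaced the island. LincRNA promoters with an island were thus occupied at a share near that of all coding promoters together, and below that of coding promoters with an island.

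The gap in occupancy was also present between islands of like size. This comparison and the others of its family of 24 were added after seeing the data. The adjusted p of this family rests on how many of its comparisons reached the smallest p that the test can give. The family includes KDM2A at members split by KDM2A in WT, an outcome that the split fixed. KDM2A at regions without an island had the same exact sign-flip permutation p in both families, but adjusted p = 0.0395 here and 0.109 in the planned family. At islands of 16 to 30 CpG, KDM2A was present at 23.8% ± 4.61 of 56 members and 46.3% ± 6.67 of 1361 coding regions (SD over 6 libraries). At islands of 31 to 50 CpG the shares were 43.5% of 64 members and 57.4% of 2729 coding regions. At 51 to 80 CpG they were 50.0% of 43 members and 69.1% of 3548 coding regions, and at 81 or more CpG 52.1% of 40 members and 72.5% of 4494 coding regions. The island of 1 further member held fewer CpG and fell in no class. In each of the 4 size classes the members were lower in 6 of 6 libraries (exact sign-flip permutation test, p = 0.031, adjusted p = 0.0395 over 24). With the TSS inside the island the shares were 48.6% of 107 members and 68.8% of 9315 coding regions, lower in 6 of 6 libraries with the same exact p-value. In both kinds of promoter the larger islands had the higher shares, and the lincRNA promoters lay below at each size. Whether these islands differ in DNA methylation was not tested.

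**Figure D2:**
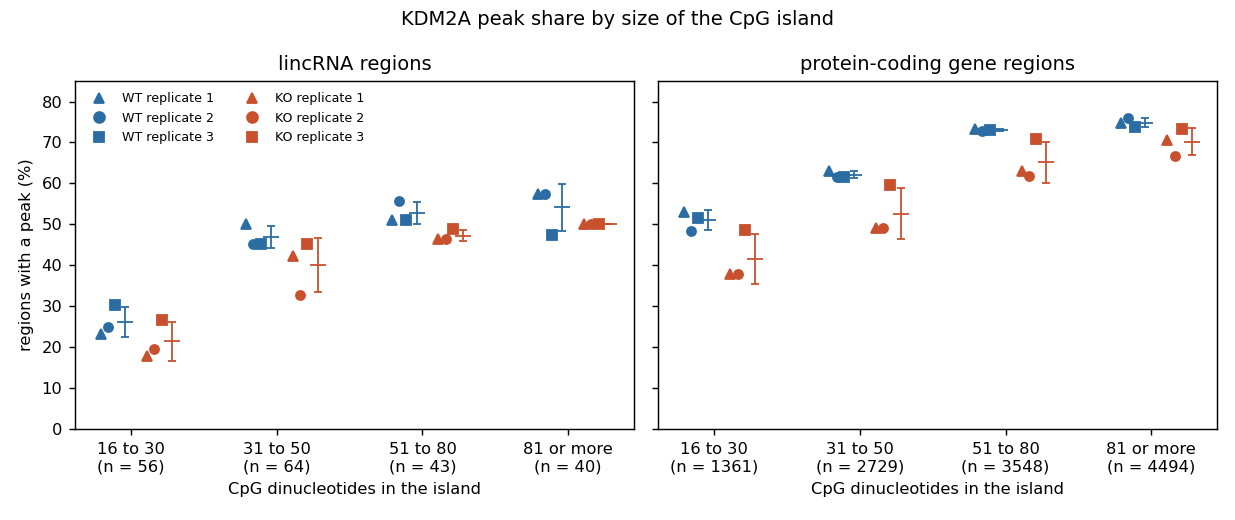
Share of regions with a KDM2A peak (%, vertical axis) by the number of CpG in the island (horizontal axis) for lincRNA members and coding genes, with 1 point per library and the mean with SD. The lincRNA values run from 23.8% in the smallest class to 52.1% in the largest, and the coding values from 46.3% to 72.5%.

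LincRNA promoters near coding genes differed in KDM2A occupancy from those away from them. Within 5 kb of a coding TSS, 40.4% of 658 lincRNA regions had a KDM2A peak on average over the 6 libraries, against 4.81% away (lower in 6 of 6 libraries, exact sign-flip permutation test, p = 0.031, adjusted p = 0.0395). With an island the shares were 60.1% of 364 near and 40.9% of 204 away, and without one 15.9% of 294 near and 3.33% of 4992 away, both lower away in 6 of 6 libraries with the same exact p-values. A peak at the neighbouring coding promoter can itself reach into a near region, and the part of such reach was not tested. Among the members themselves, those with another gene's TSS in the region had KDM2A in 14.9% and the others in 4.27%, and those inside a coding gene body in 9.18% and the others in 4.64% (each higher in 6 of 6 libraries, exact sign-flip permutation test, p = 0.031, adjusted p = 0.0395).

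Distance from coding genes ordered the members for both antibodies. In WT, KDM2A was present at 15.2% ± 1.29 of 294 members 5 to 10 kb from a coding TSS, at 10.0% ± 1.45 of 1547 members at 10 to 50 kb, at 5.44% ± 0.98 of 1024 at 50 to 100 kb, at 2.19% ± 0.19 of 1947 at 100 to 500 kb and at 0.781% ± 0.45 of 384 beyond 500 kb (SD, n = 3). H3K36me2 followed the same order, with 34.0%, 31.1%, 21.8%, 15.2% and 3.39%. The first pair of H3K36me2 values lay within 3 points of each other, and each step, the first included, exceeded the SD of both classes. Islands were rarer farther out, but members without an island kept the order, with KDM2A in 10.7%, 7.32%, 3.86%, 1.94% and 0.789% and H3K36me2 in 33.0%, 30.4%, 20.9%, 15.3% and 3.42%. Members with an island had KDM2A in 52.1% of 32 regions at 5 to 10 kb, 52.1% of 94 at 10 to 50 kb, 37.5% of 48 at 50 to 100 kb and 20.5% of 26 at 100 to 500 kb. The 4 island members beyond 500 kb had no KDM2A peak in any library. On autosomes alone, an alternative added after seeing the data, the order of the 5 classes was the same in WT for both antibodies. KDM2A was there at 10.6% of members at 10 to 50 kb, 2.65% at 100 to 500 kb and 0.943% beyond 500 kb, and H3K36me2 at 32.7%, 18.3% and 4.09%. These shares are descriptions, with no test of the trend.

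**Figure D3:**
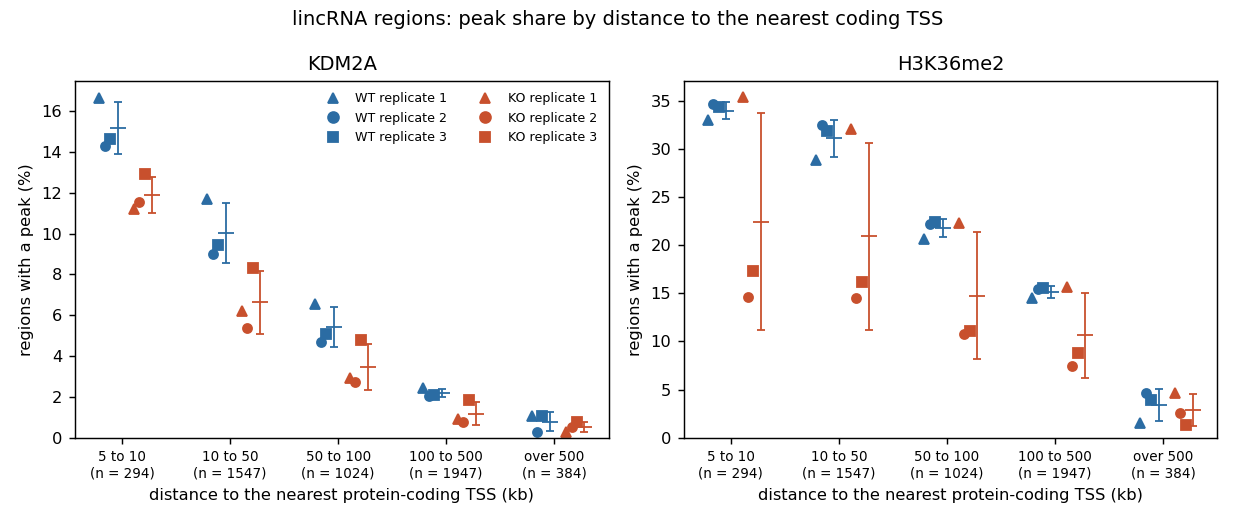
Share of lincRNA members with a peak (%, vertical axis) by distance to the nearest coding TSS (horizontal axis) for KDM2A and H3K36me2, with points for libraries and the mean with SD by genotype. In WT the KDM2A share runs from 15.2% at 5 to 10 kb to 0.781% beyond 500 kb, and the H3K36me2 share from 34.0% to 3.39%.

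Chromosomes differed as well. In WT, KDM2A was most frequent on chromosome 17, at 15.5% ± 3.04 of 200 members (SD, n = 3). H3K36me2 was highest on chromosome 10, at 38.1% ± 1.85 of 354 members, but chromosome 17 lay within the SD of it, at 37.2% ± 2.75. On chromosome X, KDM2A was present at 0.366% and H3K36me2 at 5.13% of 91 members in WT, against 6.61% and 24.3% of 4557 autosomal members. In KO the shares on chromosome X were 1.47% and 1.10%. The low values on chromosome X rest on 1 or 2 regions per library for KDM2A at most, since 3 members in all held any KDM2A peak there.

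The second question was whether loss of miR-155 went with a different KDM2A occupancy of these promoters. In WT a KDM2A peak reached 5.80% ± 0.79 of members, compared with 3.82% ± 0.96 in KO (SD, n = 3 per genotype). All 3 KO libraries lay below the 3 WT libraries. The two-sided exact permutation test gave p = 0.1, the smallest that 3 against 3 libraries allow, so no genotype comparison of this kind could pass 0.05 (adjusted p = 0.127 over 14). The KO share was 0.658 of the WT share, whereas the coding share went from 43.8% to 38.0%, a ratio of 0.867. With lists of equal length, the difference at lincRNA promoters was −0.379 points in place of −1.98 (exact permutation p = 0.2). The length of a region under KDM2A peaks averaged 1.22% ± 0.29 in WT and 0.711% ± 0.21 in KO, without overlap (exact permutation p = 0.1). With equal lists the difference was −0.216 points in place of −0.513 and the genotypes overlapped (exact permutation p = 0.2).

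The share was lower in KO in both island classes, and the classes were not tested against each other. At members with an island the KO share was 0.876 of the WT share (43.6% ± 0.85 against 38.2% ± 3.21), and without an island it was 0.567 (4.25% ± 0.81 against 2.41% ± 0.87), each without overlap between genotypes (exact permutation p = 0.1). In points the difference was −5.39 with an island and −1.84 without. With peaks of −log10 q of at least 2 it was −8.82 with an island and −1.03 without. Coding regions had ratios of 0.895 and 0.680, and all gene regions 0.895 and 0.627. The share at lincRNA promoters over the share at coding promoters had a WT mean of 0.132 ± 0.016 and a KO mean of 0.0996 ± 0.016 (SD over 3 libraries, exact permutation p = 0.1). With equal lists the difference in this ratio was −0.00983 in place of −0.0327 (exact permutation p = 0.2), the class without an island differed by −0.454 points in place of −1.84 (exact permutation p = 0.1), and the island class turned to a KO value 1.47 points above WT (exact permutation p = 0.5).

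KDM2A peaks at these promoters had a lower median fold and width than at all coding promoters, while at islands the mean widths were close. The median peak at members had a fold over local background of 2.74 in WT and 2.72 in KO, against 2.96 and 2.91 at coding regions, and a width of 664 bp in WT and 588 bp in KO, against 851 and 752 bp. With an island the median width at members measured 898 bp (WT) and 761 bp (KO), against 870 and 761 bp at coding islands, and the median fold 2.88 in both genotypes against 3.00 and 2.93. Of all KDM2A peaks overlapping a member region, 38.0% ± 3.21 in WT and 43.9% ± 4.34 in KO had their centre within 500 bp of the TSS (exact permutation p = 0.2). At coding regions these shares were 65.0% and 70.2%. Bound members with an island had 51% and 57.5% of peaks so placed, and those without had 32.6% and 35.3%. No test was run between the classes.

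Along the region, KDM2A stood over the start site where an island was present. In the 100 bases after the TSS, a KDM2A peak covered 26.9% ± 2.44 of island members in WT and 23.2% ± 3.63 in KO, against 4.77% and 3.01% at the upstream end of the region. Coding islands reached 56.0% in WT and 48.1% in KO at the same place. Without an island the members had 1.31% in WT and 0.70% in KO in the 100 bases before the TSS. H3K36me2 showed the opposite shape at islands, with 17.4% ± 1.41 of island members covered at 1600 to 1700 bp upstream and 10.6% ± 2.58 just before the TSS in WT. At members without an island it was nearly level, from 8.92% to 9.42% over the region in WT and from 3.89% to 4.36% in KO. The dip at coding islands was deeper, from 19.02% to 5.44% in WT.

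**Figure D4:**
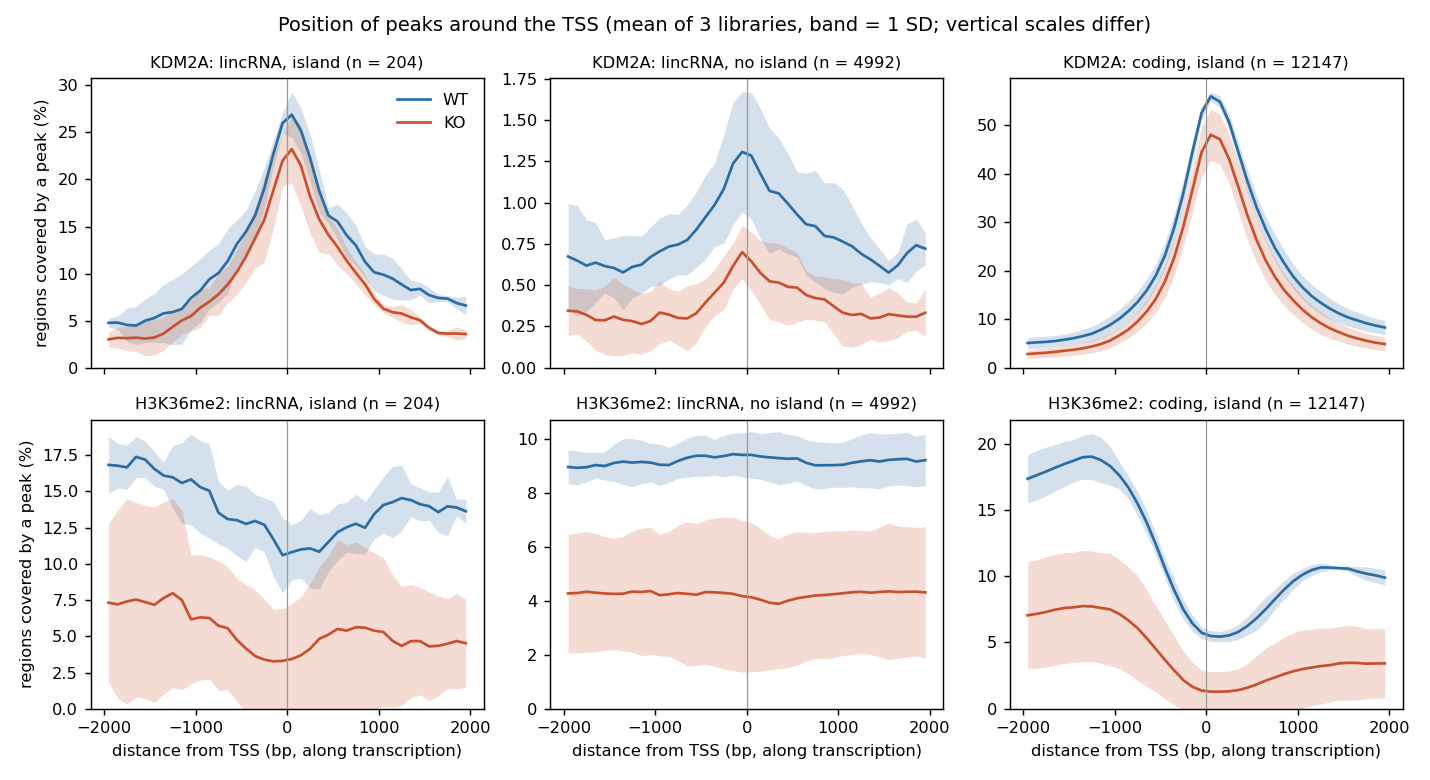
Percent of regions covered by a peak (vertical axes, scaled separately) in 100 bp steps by distance from the TSS in bp (horizontal axis), for KDM2A and H3K36me2 at island members, members without an island and coding islands. Lines are means and bands the SD over 3 libraries; KDM2A is highest at the TSS of island members (26.9% in WT), where H3K36me2 is lowest (10.6% in WT), and H3K36me2 is nearly level without an island.

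H3K36me2, whose lists were longer, was called at more members than KDM2A in each genotype, though not at the 204 with an island (36.4% in WT and 22.2% in KO, against 43.6% and 38.2% for KDM2A). Peaks reached 20.1%, 22.1% and 22.0% of members in WT and 22.2%, 10.3% and 11.4% in KO, where the first KO value is the male library with the long list. Coding regions had 33.7%, 34.4% and 35.5% in WT and 31.9%, 12.5% and 13.4% in KO. The members were lower than coding regions in 6 of 6 libraries, with an average difference of −8.88 points (range −13.6 to −2.03, exact sign-flip permutation test, p = 0.031, adjusted p = 0.109). It was −3.29 points with equal lists, −4.26 in 1 kb regions and −0.858 with peaks of −log10 q of at least 2. Members without an island had H3K36me2 in 17.5% and coding regions without an island in 18.2%, a difference of −0.678 points with a range over libraries from −1.93 to 0.962, lower in 4 of 6 (exact sign-flip permutation test added after seeing the data, p = 0.219). Its sign turned with equal lists (0.638 points), with the stricter q (0.262) and on autosomes (0.298). Without an island the members thus lay close to the coding level for the mark, while for KDM2A they lay below it in each library.

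Between genotypes the H3K36me2 share overlapped, at 21.4% ± 1.14 in WT and 14.6% ± 6.59 in KO (exact permutation p = 0.4). Without KO replicate 1 the difference was −10.6 points in place of −6.80 (exact permutation p = 0.1, the smallest that 3 against 2 libraries allow), and with equal lists it was −2.65 (exact permutation p = 0.1). It was −2.44 with peaks of −log10 q of at least 2 (exact permutation p = 0.3) and −4.23 with peak centres in the region (exact permutation p = 0.4). The covered length did not overlap between genotypes, with 8.44%, 9.78% and 9.84% of the regions' length in WT and 7.18%, 2.93% and 2.74% in KO (exact permutation p = 0.1). That difference was −5.07 points, −3.28 with equal lists and −1.69 with peaks of −log10 q of at least 2. The median width of H3K36me2 peaks at members measured 1549 bp (WT) and 921 bp (KO), against 1081 and 757 bp at coding regions. The share of lincRNA promoters with the mark over the share of coding promoters was 0.620 ± 0.024 in WT and 0.789 ± 0.082 in KO, without overlap (exact permutation p = 0.1, and 0.117 higher with equal lists at the same p). The KO share over the WT share was 0.682 for members and 0.558 for coding regions, but 0.688 and 0.636 among those without an island, a difference that was not tested.

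The third question was how the enzyme and its substrate fell on the same promoters, with libraries of the same genotype and replicate number set side by side. Where KDM2A was present, H3K36me2 was found in the same region in 67.8%, 73.7% and 71.7% of members in WT and in 74.2%, 37.7% and 40.8% in KO. Where KDM2A was absent, the mark was found in 18.4% ± 1.47 in WT and 13.2% ± 6.20 in KO. The log2 odds ratio averaged 3.45 ± 0.08 (SD) over WT libraries and 2.89 ± 0.51 over KO libraries (exact permutation p = 0.3), and for coding regions 2.77 and 1.85. For members this difference of −0.56 was −0.0099 where only peaks with their centre in the region were counted (exact permutation p = 1.0) and −0.85 without KO replicate 1 (exact permutation p = 0.1). Among KDM2A-bound regions, the mark was more frequent at lincRNA promoters than at coding promoters in 6 of 6 library pairs, at 61.0% ± 17 against 44.6% ± 18.1, a difference of 16.4 points with a range from 10.5 to 22.2 (exact sign-flip permutation test added after seeing the data, p = 0.031, adjusted p = 0.0469 over 6). This held with an island (50.6% against 43.4%) and without one (66.9% against 53.4%), each higher in 6 of 6 with the same exact p-values. Neither class passed where only peaks with their centre in the region were counted (3.80 points with an island, exact sign-flip permutation p = 0.0938, and 8.60 without, p = 0.125), nor did the island class beyond 10 kb (4.80 points, p = 0.0625).

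Sharing a region is not the same as sharing a position. Of the members with both peaks, 56.8% had a KDM2A peak and an H3K36me2 peak that shared at least 1 bp, against 33.8% of coding regions with both (higher in 6 of 6 library pairs, exact sign-flip permutation test, p = 0.031, adjusted p = 0.0469). Within island classes this difference was less regular, with 42.1% against 30.3% with an island (higher in 5 of 6, exact sign-flip permutation test, p = 0.0625) and 62.7% against 54.8% without (higher in 5 of 6, exact sign-flip permutation test, p = 0.0938).

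Counted by member, 683 of 5196 had a KDM2A peak in at least 1 library and 1564 had an H3K36me2 peak, while 3468 had neither. KDM2A was found in 1 library only at 380 members and in all 6 at 70, of which 47 had an island and 15 had another gene's TSS in the region. Of the 204 island members, 77 had no KDM2A peak in any library. H3K36me2 was found in all 6 libraries at 299 members, and 20 members held peaks in all 12 lists. KDM2A in at least 2 WT libraries marked 223 members, 139 of them without an island, and 145 members met this in KO, with 119 in common. H3K36me2 in at least 2 libraries marked 1101 members in WT and 693 in KO, with 654 in common. Both marks at this level were found at 177 members in WT, 122 of them without an island, and at 75 in KO, with 62 in common. An island was present at 55 of the 177 with both in WT, compared with 84 of the 223 with KDM2A and 204 of all 5196 members, as counts with no test. The counts of this paragraph were not repeated on lists of equal length.

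The strongest KDM2A peak lay at Gm26640 (chr6:72951236-72955236), a lincRNA gene without an island whose TSS is 5066 bp from a coding TSS. KDM2A there reached a fold of 6.16, 6.03 and 4.60 in WT, compared with 4.66, 3.44 and 4.19 in KO, and the lowest WT value lay below the highest KO value. H3K36me2 covered 87.8%, 60.4% and 76.8% of this region in WT and 64.4%, 43.2% and 0% in KO. The printed sequence of Gm26640 holds 2 CpG, where the 70 members bound in all 6 libraries had a median of 13.5. Gm12974 (chr4:133814420-133818420, with an island) had a KDM2A fold of 3.84, 4.66 and 4.46 in WT and 3.67, 3.47 and 3.81 in KO, without overlap. H3K36me2 covered 49.3% to 80.3% of it in WT and 8.70% to 51.4% in KO. Gm44698 (chr7:19331129-19335129, with an island) had a fold of 4.34, 4.18 and 3.69 in WT and 3.36, 3.19 and 4.08 in KO, which overlapped. The annotation gives these genes provisional names with no function. Next by rank came Malat1, Gm31812 and B930059L03Rik, then 1810012K08Rik and Tmem250-ps, whose regions on chromosome 2 overlap and hold the same KDM2A peak.

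A list of known lincRNA genes in 8 roles gave 26 members, of 56 listed names found in the annotation. Of the rest, 27 were annotated as another gene type and 3 lay within 5 kb of a coding TSS. An island was present at 15 of the 26. KDM2A was found in at least 2 WT libraries at 9 of them (34.6%, against 4.29% of all members and 41.2% of island members), 7 of these with an island. H3K36me2 was found in at least 2 WT libraries at 11 (42.3%, against 21.2% of all members) and in at least 2 KO libraries at 5. No peak of either kind was found in any library at 8 of the 26. The list is named by what is known of the genes and is not a random sample of members, so these shares are descriptions.

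**Figure D5:**
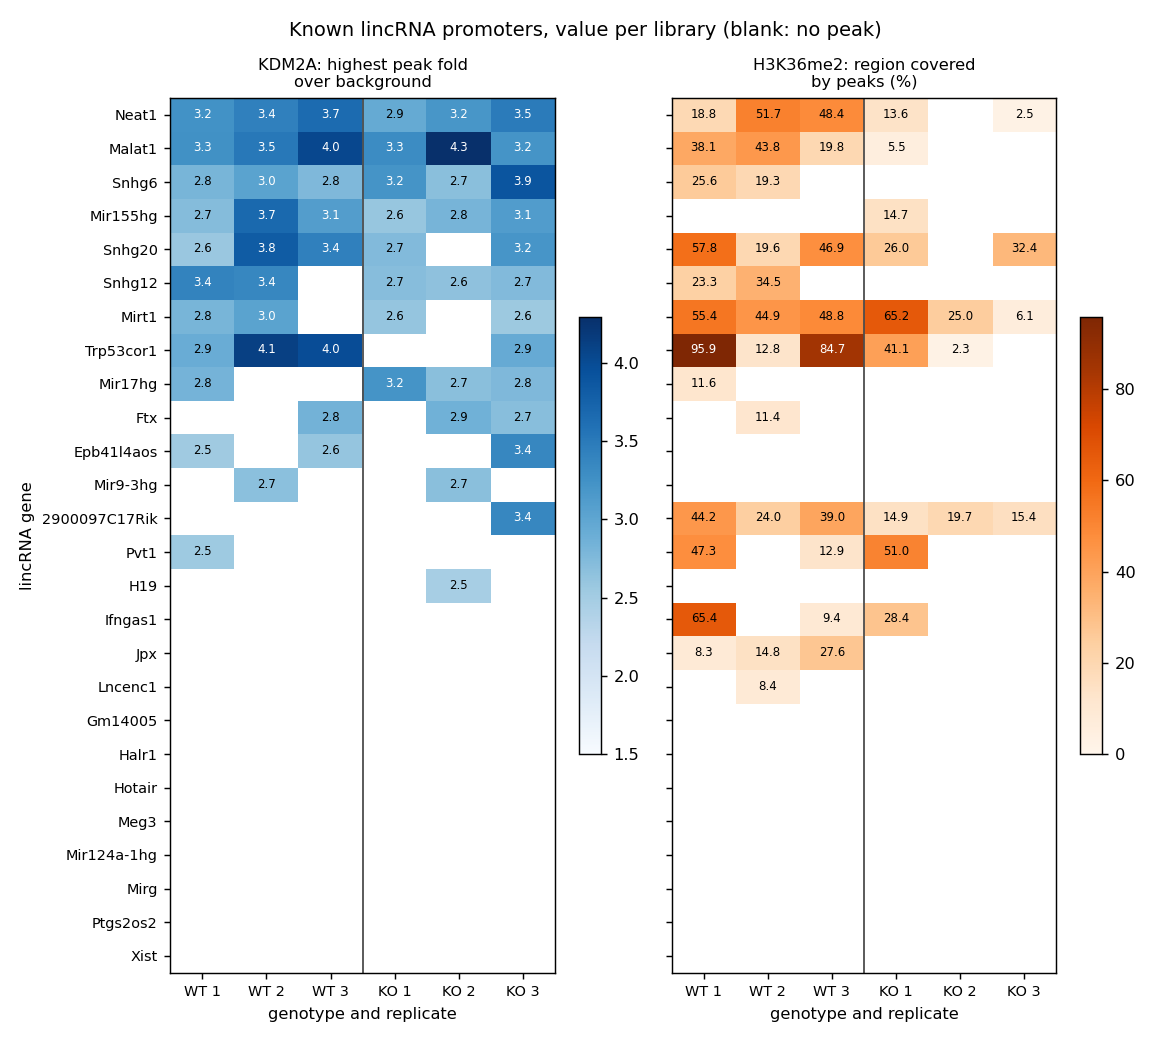
Known lincRNA members (rows) in each of the 12 libraries (columns), with blank cells where no peak was called. Colour gives the fold over local background of the strongest peak for KDM2A. For H3K36me2 it gives the percent of the region covered by peaks, on a separate scale. Malat1, Neat1, Snhg6 and Mir155hg are filled in all 6 KDM2A columns, while H3K36me2 is filled mostly in the WT columns.

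Among microRNA hosts, Mir155hg had a KDM2A fold of 2.72, 3.68 and 3.10 in WT and 2.60, 2.82 and 3.11 in KO, so its promoter, which has an island, held KDM2A in both genotypes with overlapping values. H3K36me2 was called there only in KO replicate 1, over 14.7% of the region. A peak at this promoter does not check the knockout, because the microRNA lies in the gene body 10976 bp away. Mir17hg, host of a microRNA cluster that promotes lymphocyte growth, had KDM2A in WT replicate 1 (fold 2.83) and in 3 KO libraries (3.22, 2.68 and 2.76). Mir9-3hg had KDM2A in 1 library of each genotype (2.68 and 2.69), and Mir124a-1hg, host of a neuronal microRNA, had no peak.

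Malat1 and Neat1 produce abundant nuclear RNAs, of which Neat1 RNA builds paraspeckles and Malat1 RNA gathers in nuclear speckles. Malat1 (chr19:5800672-5804672) had a KDM2A fold of 3.25, 3.52 and 4.04 in WT and 3.31, 4.30 and 3.22 in KO. Neat1 (chr19:5843478-5847478) had 3.24, 3.43 and 3.65 in WT and 2.95, 3.19 and 3.48 in KO, and the genotypes overlapped for both genes. KDM2A covered most of both regions, on average 84.8% and 92.2% in WT and 71.8% and 89.3% in KO. H3K36me2 was called in these regions too, over 38.1%, 43.8% and 19.8% of the Malat1 region in WT against 5.52%, 0% and 0% in KO. At Neat1 it covered 18.8%, 51.7% and 48.4% in WT against 13.6%, 0% and 2.47% in KO. H3K36me2 cover did not overlap between genotypes at either gene, while KDM2A fold, a different measure, did. Over all gene regions H3K36me2 cover also averaged 8.33% in WT and 3.43% in KO, so lower cover was not particular to these genes. The share of all regions without overlap in cover was not computed.

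Hosts of small nucleolar RNAs also held KDM2A in both genotypes. Snhg6 had a KDM2A fold of 2.80, 3.03 and 2.76 in WT and 3.22, 2.69 and 3.90 in KO. H3K36me2 covered 25.6%, 19.3% and 0% of the Snhg6 region in WT and was not called in KO. Snhg12 had KDM2A in 2 WT libraries (3.40 and 3.36) and 3 KO libraries (2.71, 2.65 and 2.74), with H3K36me2 in 2 WT libraries and no KO library. Snhg20 had KDM2A in 3 WT libraries (2.58, 3.82 and 3.43) and 2 KO libraries (2.74 and 3.20), and H3K36me2 in the same numbers of libraries. Each of these 3 promoters has an island and another gene's TSS in the region.

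Trp53cor1, the gene of a noncoding RNA induced by p53, lacked an island and had KDM2A at 2.91, 4.12 and 3.98 in WT and at 2.94 in KO replicate 3 alone. H3K36me2 covered its region over 95.9%, 12.8% and 84.7% in WT and 41.1%, 2.35% and 0% in KO. Pvt1, which neighbours Myc, had 1 KDM2A peak, in WT replicate 1 (2.54). Of the genes of X inactivation, Xist had no peak in any library. Jpx had H3K36me2 over 8.27%, 14.8% and 27.6% of its region in WT and none in KO, and Ftx had KDM2A in WT replicate 3 (2.83) and in KO replicates 2 and 3 (2.86 and 2.70). Imprinted Meg3 and Mirg had no peak, and H19 had 1 KDM2A peak, in KO replicate 2 (2.47). Hotair and Halr1, which lie by the Hox clusters, had no peak.

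Of the immune lincRNA genes on the list, Gm14005 and Ptgs2os2 had no peak of either kind. Mirt1 (chr19:53462796-53466796, no island) had H3K36me2 over 55.4%, 44.9% and 48.8% of its region in WT and 65.2%, 25% and 6.15% in KO. Its KDM2A peaks were in 2 libraries of each genotype, at 2.80 and 3.03 in WT and 2.61 and 2.55 in KO. Ifngas1, a gene beside the interferon gamma gene, had H3K36me2 over 65.4%, 0% and 9.45% in WT and 28.4%, 0% and 0% in KO, and no KDM2A peak. At 2900097C17Rik H3K36me2 was called in all 6 libraries, over 44.2%, 24.0% and 39.0% in WT and 14.9%, 19.7% and 15.4% in KO, without overlap.

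Presence in all libraries of 1 genotype and none of the other was rare among members. KDM2A was present in 3 of 3 WT and 0 of 3 KO libraries at 5 of the 683 members with any KDM2A peak (0.732%), where 1.31% of all 18716 gene regions with a peak met this. The reverse held for 0 members, where it held for 0.144% of all such regions. The 5 were C030034I22Rik (2.61, 3.49 and 4.40 in WT), Gm5533 (3.46, 3.13 and 3.22), Gm32479 (3.25, 3.33 and 2.74), Gm36677 (2.82, 2.58 and 3.07) and D930028M14Rik (2.67, 2.81 and 2.63). C030034I22Rik alone has an island, and D930028M14Rik starts inside a coding gene body. Leaving out any 1 library, which asks for fewer libraries, gave 10 to 25 members. Of the 121 members with KDM2A in 3 WT libraries, 87, 87 and 101 also had it in the KO libraries.

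H3K36me2 was present in 3 WT and 0 KO libraries at 37 of 1564 members (2.37%), against 3.93% of all 22083 gene regions with the mark. This count depends on KO replicate 1, without which it was 207. Of the 37, 33 lacked an island and 12 had a KDM2A peak in at least 1 library. The widest were Gm41442 (86.2%, 94.6% and 44.0% of the region in WT), 1600002D24Rik (39.5%, 64.6% and 82.1%), Gm47467 (25.2%, 51.7% and 98.1%) and Gm36235 (80.7%, 63.8% and 29.1%). The reverse held for 1 member (0.0639%, against 0.0543% of all regions), Gm49441, with 8.95%, 10.1% and 18.3% in KO. Of the 792 members with the mark in 3 WT libraries, 722 had it in KO replicate 1, 424 in KO replicate 2 and 473 in KO replicate 3.

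The lincRNA promoters with the widest H3K36me2 cover held it over most of their region in WT and over a varying part of it in KO. Gm3716 was covered over 100%, 100% and 77.4% in WT and 97.3%, 61.4% and 100% in KO, 192688 bp from the nearest coding TSS. Gm32235 was covered over 76.2%, 100% and 100% in WT and 100%, 61.3% and 79.2% in KO. D730003K21Rik was covered over its full length in 3 WT libraries and over 72.1%, 60.5% and 67.1% in KO, and Gm17745 over its full length in WT and 100%, 9.15% and 75.8% in KO. None of the 6 members with the widest cover had an island, and KDM2A was called at 4 of them, in 1 to 3 of 6 libraries.

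Where a peak was present in all 6 libraries, its fold was compared after each library was centred on its median, while the folds printed per library are as deposited. limma with Benjamini-Hochberg adjustment found no difference for KDM2A among the 70 members or among all 6593 gene regions tested (0.0% of regions, smallest adjusted p = 0.88). At an unadjusted p under 0.05 it gave 4 members, 1 higher and 3 lower in KO, where 5.35% of all regions met this, with 4 lower and 0 higher without centring and 3 lower and 0 higher on ranks. The genotypes did not overlap at 6 members, 1 higher and 5 lower in KO, where 11.2% of all regions did not overlap. Log2 differences of the members lay between −0.39 and 0.30 with a median SE of 0.11. The largest was at Gm26640 (−0.39 ± 0.13 SE, limma unadjusted p = 0.0073, adjusted p = 0.88). CR974462.6 had a fold of 3.77, 3.83 and 3.86 in WT and 2.98, 3.17 and 3.08 in KO, B930059L03Rik 4.18, 4.68 and 3.62 in WT and 3.03, 3.25 and 3.53 in KO, and 5430416N02Rik 3.48, 3.35 and 3.72 in WT and 2.83, 2.88 and 3.05 in KO. Gm11527 was the member higher in KO without overlap, at 2.83, 2.94 and 2.85 in WT and 3.02, 3.66 and 3.56 in KO (0.30 ± 0.11 SE, limma adjusted p = 0.88).

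For H3K36me2 limma found no difference among 299 members or among 2004 gene regions (0.0% of regions, smallest adjusted p = 0.78). At an unadjusted p under 0.05 it gave 17 members, 11 higher and 6 lower in KO, where 5.54% of all regions met this. The direction of that count turned with the scaling, with 10 higher and 1 lower without centring and 2 higher and 24 lower on ranks within each library. The genotypes did not overlap at 44 members, 28 higher and 16 lower, against 11.0% of all regions. Log2 differences lay between −0.23 and 0.26 with a median SE of 0.067. Gm34096 had a fold of 2.48, 2.70 and 2.71 in WT and 3.35, 2.94 and 2.96 in KO, and Gm46204 3.01, 2.85 and 3.01 in WT and 2.72, 2.56 and 2.73 in KO. On these ranks limma called 2 of the 2004 regions and 0 of the members for H3K36me2, and 0 for KDM2A. The test used regions bound in all libraries, which leaves out regions lost in a genotype.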

How the data were processed

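Peak lists of 12 ChIP-seq libraries were used. Per the labels and the study's methods, the authors ran the nf-core/chipseq pipeline, which mapped reads with BWA (GRCm38) and used MACS2 for broad peak calls, 1 list per library. The versions of BWA and MACS2 are not given in the sources used here. The deposited fold is the authors' ratio of signal over local background, averaged over a peak and not normalized between libraries. The deposited −log10 q-value served only as a stricter threshold of 2. The deposited score and −log10 p-value were not used. No counts came with the lists, so depth and counting error are unknown, and a library with fewer reads can be expected to give fewer peaks.

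A region had a peak when at least 1 bp overlapped, and its fold was that of its strongest peak. Islands of CpG were found in repeat-masked GRCm38.p6 sequence with a running score of 17 per CpG and −1 per other base, keeping segments over 200 bp with GC of at least 50% and observed over expected CpG above 0.6 (16099 islands). Genotypes were compared with the two-sided exact permutation test over 6 libraries, and kinds of promoter with the exact sign-flip permutation test over within-library differences. Log2 fold in regions with a peak in all 6 libraries, centred on each library's median, was fitted with limma 3.58.1 (trend, Benjamini-Hochberg adjustment, threshold 0.05) in R 4.3.3 over all gene regions. Tested on simulated data with 200 changed regions, it recovered 94% of changes of 1 and 50% of changes of 0.5 on the log2 scale for KDM2A (6593 regions), and 100% and 94.5% for H3K36me2 (2004 regions). Python 3.11.15 (scipy 1.17.1, pandas 2.3.3, numpy 2.4.6) gave all other values.

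The members and lists were chosen with earlier results of these data known. Named members were those of a list of known lincRNA genes, the 8 with the highest mean KDM2A percentile rank in all 6 libraries, up to 6 each way with a peak in 3 of 3 and 0 of 3 libraries, the 6 with the widest H3K36me2 cover, the 3 of largest fold change each way among those without overlap, and the 6 with both marks in WT and the highest KDM2A fold. The text gives a few of each. Alternatives were a stricter q, equal list lengths, peak centres, 1 kb regions, a distance of 10 kb, all coding transcripts, autosomes, female libraries, ranks, and leaving out each library. The promoter sequences of 2 named members are not reported here.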

Additional observations from a re-analysis of the deposited data

Results flagged for a closer look

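In 2 comparisons the male and female libraries moved in opposite directions. The share of lincRNA promoters with an H3K36me2 peak was 2.10 percentage points higher in KO than in WT for the male pair of libraries, and 11.2 points lower on average for the female libraries (−11.9 to −10.6). The log2 odds of H3K36me2 at members with a KDM2A peak against those without was 0.086 higher in KO for the male pair and 0.88 lower on average for the female libraries (−0.99 to −0.76). Each genotype has 1 male library, so the difference between sexes was not tested, and sex cannot be told apart from the single library with 106720 H3K36me2 peaks.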

How the results depend on the processing

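Precision is limited by 3 libraries per genotype and by unknown read depth, so a region without a peak may be one below detection. Among the values recomputed under alternatives, 61 no longer had an unadjusted p under 0.05, 27 counts moved and 4 values reversed. For runs on female libraries alone or without 1 library, most of the 61, this loss was fixed in advance. No p under 0.05 was possible there. The comparisons by island size, near against away, with another TSS, inside a coding gene body and of touching peaks were not rerun under the alternatives. The genotype comparisons could not cross the threshold, since 3 against 3 libraries allow no p under 0.1. The 4 planned differences from coding promoters did not pass after adjustment to begin with (adjusted p = 0.109). The added comparisons that passed had the same exact p, and passed because a larger part of their families reached it. Female libraries alone allow no p under 0.125, and the differences there were −36.3 (KDM2A), −7.50 (H3K36me2), −24.5 (KDM2A, island) and −7.51 points (KDM2A, no island). Comparisons added after seeing the data gave 16.4 (H3K36me2 given KDM2A), 6.48 (island), 15.1 (no island) and −21.1 points (KDM2A, TSS in island) there. Leaving out each library in turn (smallest p 0.0625) gave −36.8 to −35.6, −10.2 to −7.94, −24.6 to −23.9 and −7.78 to −7.13 points for the first 4, and 15.2 to 17.6, 5.97 to 7.84, 12.2 to 15.1 and −20.8 to −19.2 points for the added 4. The H3K36me2 difference was −0.858 points with −log10 q of at least 2 (exact sign-flip permutation p = 0.0625) and −4.26 points in 1 kb regions (p = 0.0938 by the same permutation test). The H3K36me2 share given KDM2A differed by 3.80 points (island) and 8.60 points (no island) with peak centres, and by 4.80 points (island) beyond 10 kb. The KO minus WT difference of KDM2A at island members reversed to 1.47 points with equal lists. The H3K36me2 difference without an island reversed to 0.262 points with the stricter q, 0.638 with equal lists and 0.298 on autosomes. The cause was not tested.

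Members with KDM2A in WT only numbered 8 with peak centres and 11 in 1 kb regions, and 10 to 25 when leaving out each library, with 0 to 3 for KO only. Members with H3K36me2 in WT only numbered 15 with the stricter q and 47 to 207 when leaving out each library, the highest without KO replicate 1. Those in KO only numbered 0 with the stricter q, 4 with equal lists, 8 with peak centres, 0 in 1 kb regions and 1 to 8 when leaving out each library. limma called 0 members for either antibody under each alternative run for it, namely ranks, no centring, 1 kb regions, the stricter q, a peak in at least 4 libraries, each library left out and the replicate block. The stricter q left only 24 members to test for KDM2A and 2 for H3K36me2, so 0 calls there say little.

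Same-numbered libraries did not deviate together in fold at regions with a peak in all 6 libraries (correlation of deviations between −0.018 and 0.033). The main genotype tests were not paired by number. The number does go with sex by the labels, and shared handling was not tested. With the number as a replicate block, the KO minus WT difference was −1.98 points for KDM2A (exact sign-flip permutation p = 0.25, the smallest of 3 pairs), −6.80 for H3K36me2, and limma called 0 regions for both.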
